A study of Mus musculus with 8 samples.

Results

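Chromatin remodellers are large protein machines that use ATP to slide, evict or exchange nucleosomes. The 43 mouse genes described here encode the ATPases and selected subunits of the BAF, NuRD, ISWI and INO80 families, together with the remaining CHD proteins, ATRX and HELLS. They were chosen by symbol and matched through the Entrez identifiers of a gene count table. The rule used no measured value, although earlier results of these data were known. A row was found for 40 of the 43 among 21950 genes, while *Smarcc2*, *Pbrm1* and *Chd4* have no row and their expression was not analysed here.

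The study asked how closely mouse germ cells made in culture resemble those of the embryo, using poly(A) RNA sequencing of sorted cell pools. One group held 4 libraries of d6PGCLCs, primordial germ cell-like cells derived from 1 BVSC-iPSC line. These induced pluripotent stem cells carry Blimp1-Venus and Stella-ECFP reporters, which mark germ cell fate. The d6PGCLCs were collected 6 days after leaving the epiblast-like state, on day 8 of culture. The protocol given for them sorts either for both reporters or for SSEA1 and integrin β3. The other group held 4 libraries of E12.5 PGCs, primordial germ cells from female gonads of C57BL/6J fetuses, sorted for SSEA1 and integrin β3. Each library came from a pool of 30000 to 340000 cells, and the paper states that the replicate pools came from independent experiments. The spread between libraries is therefore that between pools. Culture and developmental stage differ between the groups, and genetic background and sort markers may also differ. Their parts cannot be told apart.

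As background, BAF (SWI/SNF) complexes are built around 1 of a pair of alternative ATPases, BRG1 (*Smarca4*) or BRM (*Smarca2*), and open chromatin at enhancers and promoters. NuRD joins a CHD-family ATPase to histone deacetylases and MBD proteins and is mostly linked to gene silencing. ISWI remodellers space nucleosomes, INO80-family remodellers act on the histone variant H2A.Z, ATRX deposits H3.3 in heterochromatin, and HELLS (LSH) is needed for DNA methylation at repeats. Germ cells of this age are undergoing genome-wide erasure of DNA methylation.

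The libraries held from 7991440 to 12024800 counted reads. The 10 germ cell markers examined were above the floor of 3 counts (from 0.249 to 0.383 CPM, counts scaled to library size, depending on the library) in both groups, but the individual markers differed, 4 being called higher and 4 lower in d6PGCLCs. The late germ cell markers *Ddx4* (27.2 to 42.8 against 626 to 836 CPM) and *Dazl* (17.8 to 63.9 against 1018 to 1580 CPM) were far lower in d6PGCLCs, and *Pou5f1* (1439.7 to 1822 against 822 to 1048 CPM) was higher. Of 10 gonadal somatic markers 9 have a row, with a summed level of 1.41 to 3.15 CPM in d6PGCLCs against 6.23 to 11.6 CPM in E12.5 PGCs, and 5 were called lower. Of 6 markers of mesoderm and other cells 5 were called lower (summed 1.16 to 2.24 against 8.76 to 13.1 CPM), as were 2 of the 5 blood markers with a row (0.249 to 1.12 against 1.62 to 7.37 CPM), whereas 2 of 6 endothelial markers were called higher (35.6 to 43.2 against 19.2 to 34.2 CPM). The part of such cells in the differences below was not tested. E12.5 PGC replicate 4 held 97 counts of 5 Y-linked genes and the others held 0, and E12.5 PGC replicate 2 had an *Hspa1a* level of 144 CPM against 4.42 to 20.3 CPM in the others of its group. This heat shock gene also separated the groups, at 0.305 to 0.747 CPM in d6PGCLCs, as did *Hspa1b* at 1.45 to 1.79 CPM against 6.41 to 181 CPM, and the part of this in the differences below was not tested. Without E12.5 PGC replicate 4 the test below called 18 of the remodeller genes (28.2% of all genes), and without replicate 2 it called 22 (29.8% of all genes).

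Lower expression in d6PGCLCs was the prevailing direction among the remodeller genes. By edgeR's quasi-likelihood test, with Benjamini-Hochberg adjustment over all 21950 genes and an adjusted p of at most 0.05, 22 of 40 genes (55%) differed between the groups, against 31.5% of all genes. Of these, 19 were lower in d6PGCLCs (47.5%, against 15.4% of all genes) and 3 were higher (7.5%, against 16.1%). Most remodeller genes are well expressed, and well-expressed genes pass the test more often. Where the mean was 10 CPM or more, the share called was 58.8% for 34 remodeller genes and 54.2% for all such genes, with 50% lower against 25.7% and 8.82% higher against 28.4%. The median log2 fold change of the 40 genes, d6PGCLC over E12.5 PGC, was -0.29, and that of all genes was 0.00. In such bulk samples fewer cells of a type and less RNA per cell cannot be told apart.

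Most of these differences were small. Only 4 of the 40 genes (10%) combined a call with a log2 fold change beyond 1 in either direction, namely *Smarca2*, *Smarcd3*, *Hells* and *Chd9*, while 14.7% of all genes did so. All 4 were lower in d6PGCLCs, as were 6.75% of all genes at this size, and 2 of them, *Smarca2* and *Smarcd3*, passed a log2 change of 2, as did 6.62% of all genes. Libraries of the groups were fully separated for 19 of 40 genes (47.5%, against 30.2% of all genes), and in the subset with at least 10 CPM for 50%, against 51.9%.

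**Figure D1:**
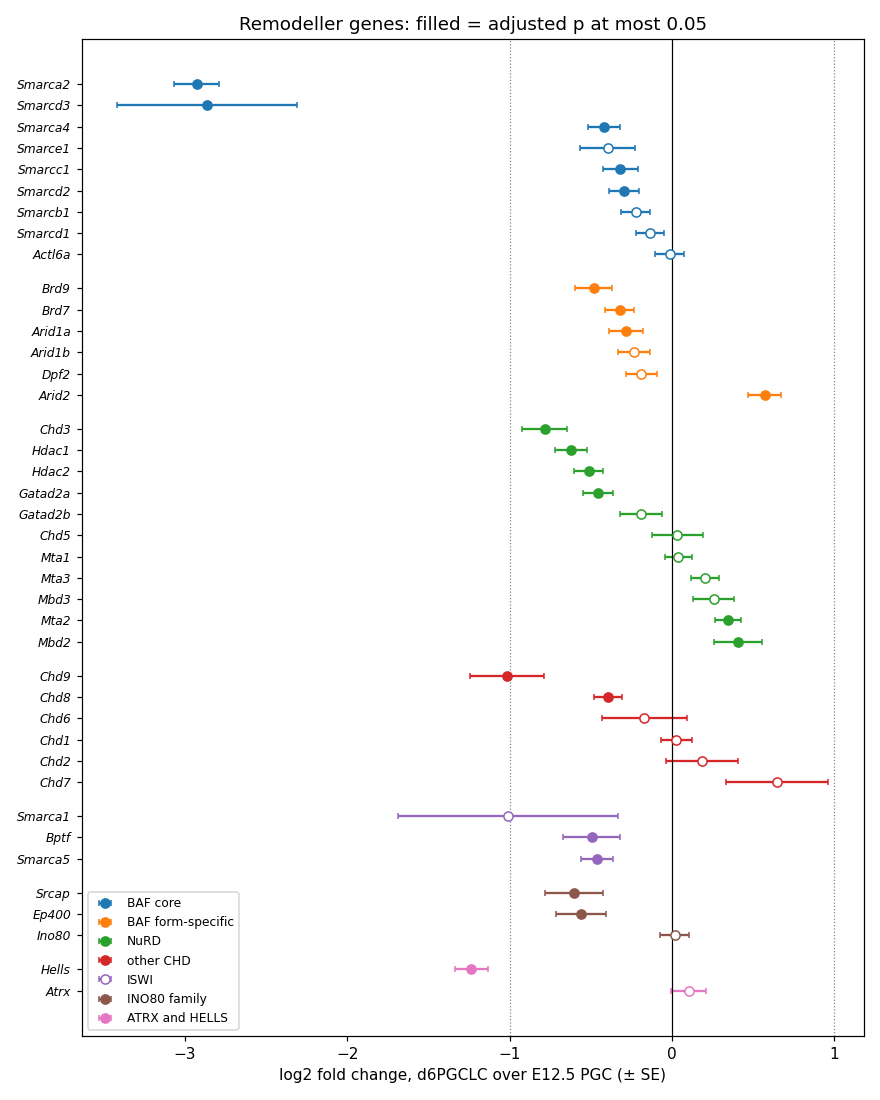
Log2 fold change of each remodeller gene, d6PGCLC over E12.5 PGC, with its standard error (horizontal bars) and filled points for an adjusted p of at most 0.05, grouped and coloured by complex. *Smarca2* (-2.93) and *Smarcd3* (-2.86) lie far to the left, and of the filled points only *Arid2*, *Mta2* and *Mbd2* lie to the right of 0.

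The promoter sequences of the ATPase pair *Smarca2* and *Smarca4*, of *Hells* and of *Smarcd3* are shown because these genes carry the largest differences and because *Smarca4* is the partner against which *Smarca2* is read below. Each is the 250 bases before a RefSeq transcription start (GRCm38.p6), 5′ to 3′ on the gene's strand, at chr19:26604910-26605159 (plus strand) for *Smarca2*, chr9:21615919-21616168 (plus) for *Smarca4*, chr19:38930740-38930989 (plus) for *Hells* and chr5:24602003-24602252 (minus) for *Smarcd3*. Gene spans given below come from RefSeq. For all 4 genes the outermost start of the span lies upstream of the transcription start used here, so the windows overlap the gene spans. Capitals mark the GC box, GGGCGG or its reverse complement CCGCCC.
*Smarca2*: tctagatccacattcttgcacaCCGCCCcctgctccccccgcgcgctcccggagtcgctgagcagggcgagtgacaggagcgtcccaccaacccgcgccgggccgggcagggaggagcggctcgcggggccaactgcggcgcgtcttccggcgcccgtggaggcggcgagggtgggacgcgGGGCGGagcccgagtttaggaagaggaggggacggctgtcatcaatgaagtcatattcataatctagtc
*Smarca4*: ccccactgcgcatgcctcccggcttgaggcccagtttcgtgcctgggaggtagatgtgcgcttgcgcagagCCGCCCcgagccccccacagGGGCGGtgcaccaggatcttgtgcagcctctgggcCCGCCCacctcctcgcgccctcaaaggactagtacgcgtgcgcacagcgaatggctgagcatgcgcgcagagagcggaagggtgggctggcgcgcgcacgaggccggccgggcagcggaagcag
*Hells*: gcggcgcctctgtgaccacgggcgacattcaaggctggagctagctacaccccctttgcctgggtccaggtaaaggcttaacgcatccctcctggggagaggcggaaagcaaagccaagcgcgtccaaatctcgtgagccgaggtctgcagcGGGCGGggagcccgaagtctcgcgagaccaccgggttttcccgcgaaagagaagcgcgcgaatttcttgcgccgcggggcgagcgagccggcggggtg
*Smarcd3*: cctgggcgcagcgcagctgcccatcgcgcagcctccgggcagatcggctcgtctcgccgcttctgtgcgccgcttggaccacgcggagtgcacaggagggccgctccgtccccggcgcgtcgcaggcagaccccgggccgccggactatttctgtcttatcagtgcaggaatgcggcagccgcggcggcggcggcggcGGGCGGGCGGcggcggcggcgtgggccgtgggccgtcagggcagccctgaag

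All 4 windows were rich in CpG, with 28 in *Smarca2*, 25 in *Smarca4*, 28 in *Hells* and 38 in *Smarcd3*. GC boxes numbered 2, 3, 1 and 2 in the same order, so the pair of alternative ATPases does not differ in whether this motif is present. Across the 34 remodeller genes with a RefSeq entry, *Smarcc2*, *Pbrm1* and *Chd4* included, 36 of 41 windows (87.8%) held a GC box, against 32.7% of all 32851 windows of the same length. The median window held 22 CpG with 67.2% G and C, against 6 CpG and 52.4% for all windows. The CCAAT box (CCAAT) was in 26.8% against 33.8%, the E-box CACGTG in 4.88% against 6.02%, and the E2F-type sequence TTTNGCGC in 0 windows against 1.13%, each searched on both strands. These matches describe the letters of the windows only.

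*Smarca2*, which encodes the BAF ATPase BRM, was well below its E12.5 PGC level in d6PGCLCs (Entrez 67155, chr19:26605073-26778321, plus strand). Its level was 29.9, 23.1, 21.4 and 26.2 CPM in d6PGCLC replicates 1 to 4 and 229, 142, 216 and 175 CPM in E12.5 PGC replicates 1 to 4. All d6PGCLC libraries were low and all E12.5 PGC libraries high, with a wide gap between them. The means were 25.1 ± 3.72 and 191 ± 39.7 CPM (SD, 4 libraries each), 7.61-fold lower in d6PGCLCs, and the log2 fold change was -2.93 (SE 0.14, adjusted p = 1.76e-12). Leaving out any 1 library kept it between -3.04 and -2.83. GENCODE places 2 genes on the opposite strand within *Smarca2*, and whether counting used the strand is not given in the sources used here.

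The other BAF ATPase gene, *Smarca4*, encoding BRG1, was well expressed in both groups. It measured 617, 471, 498 and 520 CPM in d6PGCLCs and 770, 602, 753 and 691 CPM in E12.5 PGCs. The groups overlapped, since d6PGCLC replicate 1 lay above E12.5 PGC replicate 2. The log2 fold change was -0.42 (SE 0.10, adjusted p = 0.00188). Per kilobase of exon (RPKM), which allows levels of different genes to be compared, *Smarca4* was at 68.2 ± 8.26 in d6PGCLCs and 91.1 ± 9.83 in E12.5 PGCs, and *Smarca2* at 3.52 ± 0.52 and 26.7 ± 5.56.

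The balance between the paralogous ATPase genes, formed from the same counts, restates the values above, and it separated the groups. Within each library the log2 ratio of *Smarca4* to *Smarca2*, per kilobase, was 4.25, 4.23, 4.42 and 4.19 in d6PGCLCs and 1.63, 1.97, 1.69 and 1.87 in E12.5 PGCs. The groups were far apart, with a change of 2.49 in the mean log2 ratio. *Smarca2* made up 4.91% ± 0.32 of the summed *Smarca2* and *Smarca4* level in d6PGCLCs and 22.5% ± 1.87 in E12.5 PGCs. No test was run on ratios, which are described by their values in each library.

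**Figure D2:**
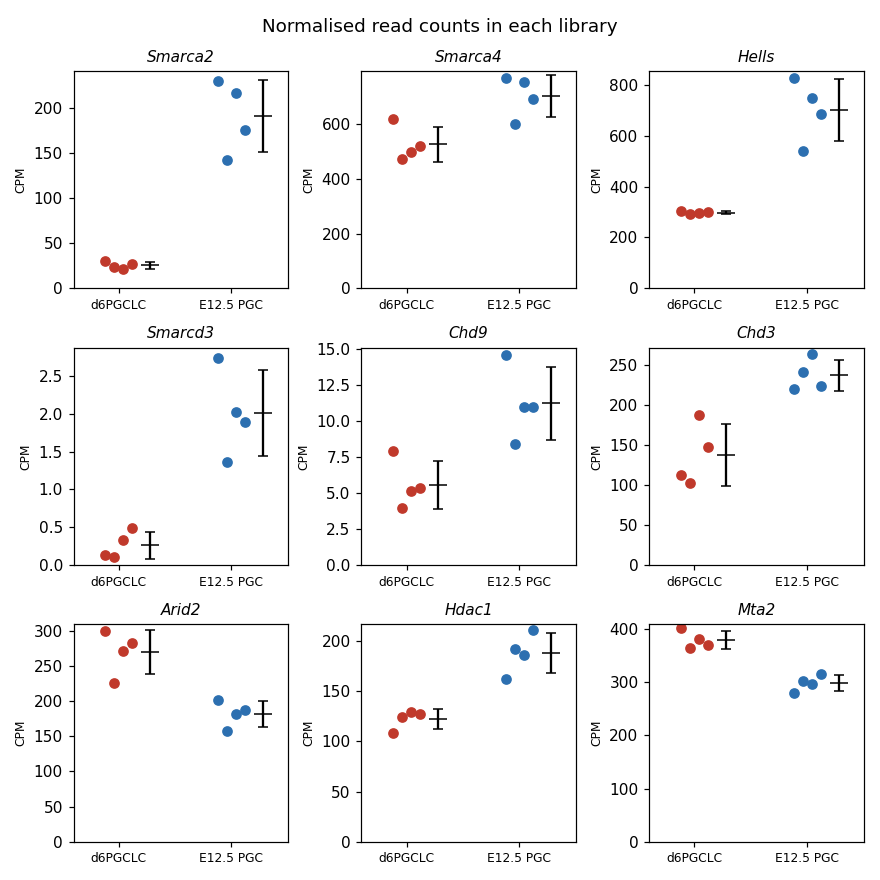
Normalised read counts (CPM, linear axes from 0) of 9 remodeller genes in each d6PGCLC library (red) and E12.5 PGC library (blue), with the group mean and SD in black. *Smarca2* sits between 21.4 and 29.9 CPM in d6PGCLCs and between 142 and 229 CPM in E12.5 PGCs, while *Smarca4* overlaps between the groups and *Arid2* and *Mta2* are higher in d6PGCLCs.

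*Smarcd3*, encoding BAF60C, the BAF60 paralogue best known from heart and muscle, was near the floor of detection in d6PGCLCs. It had 1, 1, 4 and 4 counts in d6PGCLC libraries and 22, 13, 22 and 21 counts in E12.5 PGC libraries. Every E12.5 PGC library lay above every d6PGCLC library, although 2 of the latter were below 3 counts. The summed counts of 10 and 78 gave a level 7.51-fold lower in d6PGCLCs (95% interval 3.87 to 16.3, exact, counting error only), and the log2 fold change was -2.86 (SE 0.55, adjusted p = 7.11e-05). Without single libraries it lay between -3.24 and -2.60, and with a prior count of 2 it was -2.23. GENCODE places 2 genes on the opposite strand within this gene too. Even in E12.5 PGCs *Smarcd3* was a minor BAF60 gene, at 0.895 RPKM against 104 for *Smarcd1* and 72.2 for *Smarcd2*.

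The remaining BAF core subunits showed smaller differences. The scaffold gene *Smarcc1* (log2 fold change -0.32, SE 0.11, adjusted p = 0.0282) and the BAF60B gene *Smarcd2* (-0.29, SE 0.09, adjusted p = 0.0181) were lower. Their calls were not retained without some libraries, with adjusted p up to 0.118 for *Smarcc1* without E12.5 PGC replicate 1 and up to 0.0807 for *Smarcd2* without E12.5 PGC replicate 4. *Smarcb1*, the tumour suppressor subunit SNF5, narrowly missed the threshold at -0.22 (SE 0.09, adjusted p = 0.0550) and was called in 10 of 21 alternatives, with an adjusted p of 0.00742 by DESeq2. *Smarce1* (-0.40, adjusted p = 0.0838) was called in 8 of 21. Neither passed the main test, nor did *Smarcd1* (-0.13) or the actin-related *Actl6a* (-0.01). All 9 measured core genes had a negative log2 fold change, *Actl6a* changing sign under some alternatives, and 5 of them were called (55.6%, against 31.5% of all genes and 54.2% of those with at least 10 CPM).

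Subunits that set the form of the complex moved in both directions. *Arid2*, which defines the PBAF form, was higher in d6PGCLCs, at 300.0, 226, 270 and 283 CPM against 201, 157, 182 and 187 CPM. The lowest d6PGCLC library stood above the highest E12.5 PGC library, and the log2 fold change was 0.57 (SE 0.10, adjusted p = 1.07e-04). The PBAF bromodomain subunit *Brd7* (-0.32, adjusted p = 0.00735) and *Brd9*, which marks the non-canonical GBAF form (-0.48, SE 0.11, adjusted p = 0.00192), were lower. The canonical subunit gene *Arid1a* was lower at -0.28 (adjusted p = 0.0389), but not after adjusting for transcript length (-0.11, adjusted p = 0.307) nor without any of 4 libraries taken singly (adjusted p = 0.116 without d6PGCLC replicate 2, and 0.184, 0.0937 and 0.0502 without E12.5 PGC replicates 1, 3 and 4). *Arid1b* (-0.23, adjusted p = 0.0804) and *Dpf2* (-0.19, adjusted p = 0.148) did not pass, although *Arid1b* was called in 8 of 21 alternatives and had a log2 fold change of 0.03 after the length adjustment.

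A ratio of *Arid1a* to *Arid2*, formed after their values were seen, separated the groups. It was 0.93, 1.04, 1.06 and 1.05 (log2, per kilobase) in d6PGCLCs and 1.97, 1.84, 1.90 and 1.76 in E12.5 PGCs. *Arid2* supplied 33.0% ± 0.91 of the summed level in d6PGCLCs and 21.5% ± 1.03 in E12.5 PGCs. By contrast *Arid1a* to *Arid1b*, which fill the same place in canonical BAF, overlapped between the groups, with means of 2.13 ± 0.12 and 2.18 ± 0.08.

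**Figure D3:**
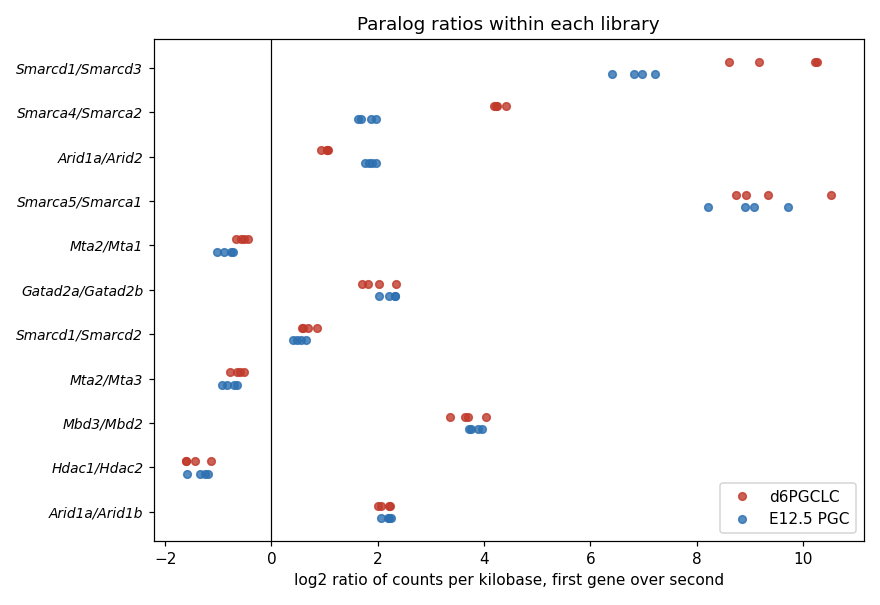
Log2 ratio of counts per kilobase between paralogous or alternative subunit genes in each d6PGCLC library (red) and E12.5 PGC library (blue). The groups do not overlap for *Smarcd1*/*Smarcd3*, *Smarca4*/*Smarca2*, *Arid1a*/*Arid2* and *Mta2*/*Mta1*, and overlap for the other pairs.

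Of 11 NuRD genes measured, 4 were lower in d6PGCLCs and 2 were higher. This share called, 54.5%, is next to the 54.2% of all genes with at least 10 CPM, of which 25.7% were lower and 28.4% higher, against 36.4% and 18.2% for NuRD. The lower ones were the ATPase gene *Chd3*, both deacetylase genes and *Gatad2a*, which links the deacetylase and remodelling modules of the complex. *Chd3* had 112, 102, 187 and 148 CPM in d6PGCLCs and 220, 240, 263 and 223 CPM in E12.5 PGCs, without overlap but with a wide spread in d6PGCLCs (log2 fold change -0.78, SE 0.14, adjusted p = 1.09e-04). *Hdac1* was at 122 ± 9.66 against 188 ± 20.3 CPM (-0.62, SE 0.10, adjusted p = 3.02e-05) and *Hdac2* at 338 ± 39.0 against 483 ± 27.2 CPM (-0.51, SE 0.09, adjusted p = 1.30e-04). Both deacetylase genes also serve other corepressor complexes. *Gatad2a* fell by 0.46 on the log2 scale (SE 0.09, adjusted p = 4.16e-04).

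The NuRD genes that were higher belonged to the MTA and MBD families. *Mta2*, which scaffolds the deacetylases, was at 403, 365, 381 and 370 CPM in d6PGCLCs and 279, 303, 297 and 316 CPM in E12.5 PGCs, without overlap (log2 fold change 0.35, SE 0.08, adjusted p = 0.00202). *Mbd2*, which binds methylated CpG, was at 18.9 ± 2.12 against 14.2 ± 0.57 CPM (0.41, adjusted p = 0.0417), a call lost without any of 7 libraries taken singly (adjusted p up to 0.124) and after the length adjustment (adjusted p = 0.155). *Mbd3* (0.26, adjusted p = 0.146) and *Mta3* (0.20, adjusted p = 0.0829) did not pass, and *Mta1* was at 521 ± 25.7 and 507 ± 24.9 CPM (0.04, adjusted p = 0.914). *Gatad2b* (-0.19) and the neural ATPase gene *Chd5* (0.03) were not called.

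Per kilobase, *Mta1* was the leading MTA gene in E12.5 PGCs, at 142 ± 6.94 RPKM, next to *Mta3* at 135 ± 6.82 and above *Mta2* at 78.4 ± 4.01. In d6PGCLCs *Mta3* (155 ± 12.1) and *Mta1* (146 ± 7.19) again lay within their spread of each other, with *Mta2* at 99.7 ± 4.37. The log2 ratio of *Mta2* to *Mta1* moved from -0.85 ± 0.14 in E12.5 PGCs to -0.55 ± 0.10 in d6PGCLCs without overlap. The ratios of *Hdac1* to *Hdac2*, *Gatad2a* to *Gatad2b* and *Mbd3* to *Mbd2* overlapped.

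Among the CHD proteins outside NuRD, 2 of 6 were called (33.3%, against 31.5% of all genes), both lower. *Chd9* had 7.91, 3.97, 5.14 and 5.33 CPM in d6PGCLCs and 14.6, 8.42, 11 and 11 CPM in E12.5 PGCs. The lowest E12.5 PGC library was only just above the highest d6PGCLC library. The log2 fold change was -1.02 (SE 0.23, adjusted p = 0.00113), from -1.22 to -0.87 when single libraries were left out, and GENCODE places 2 genes on its opposite strand. *Chd8*, a regulator of β-catenin target genes, was at 234 ± 13.0 against 307 ± 26.5 CPM (-0.39, SE 0.09, adjusted p = 0.00133), and was not called after the length adjustment (-0.20, adjusted p = 0.0660). *Chd1*, which keeps chromatin open in pluripotent cells, was at 238 ± 33.7 and 233 ± 3.58 CPM (0.03). *Chd2* (0.19) and *Chd6* (-0.17) did not pass, nor did *Chd7* (0.65, adjusted p = 0.136), which ranged from 0.35 without d6PGCLC replicate 1 (adjusted p = 0.459) to 0.99 without E12.5 PGC replicate 1 (adjusted p = 0.0179).

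The counted isoform limits what these values cover. The authors counted 1 transcript of each gene, and for 10 of the 40 genes it spanned under 35% of the longest GENCODE transcript. These were *Chd6* (3.80%), *Srcap* (7.98%), *Chd2* (13.1%), *Chd9* (17.5%), *Mbd3* (17.8%), *Chd7* (20.8%), *Smarcb1* (21.8%), *Bptf* (24.6%), *Ep400* (26.6%) and *Gatad2b* (28.6%). Of these, *Srcap*, *Chd9*, *Bptf* and *Ep400* were called. For 20 genes the counted transcript spanned at least 85%, including *Smarca2*, *Smarca4*, *Arid2*, *Chd3* and *Hdac1*.

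Of 3 ISWI genes, 2 were lower, a direction called for 15.4% of all genes and 25.7% of those with at least 10 CPM. *Smarca5*, encoding the SNF2H ATPase, had 174, 164, 154 and 173 CPM in d6PGCLCs and 254, 185, 241 and 235 CPM in E12.5 PGCs. The groups did not overlap, with E12.5 PGC replicate 2 nearest to the d6PGCLCs (log2 fold change -0.46, SE 0.10, adjusted p = 8.58e-04). *Bptf*, the NURF subunit that reads H3K4 methylation, was at 39.9 ± 12 against 56.1 ± 12.2 CPM (-0.49, adjusted p = 0.0347), overlapped between the groups, and was not called without any of 6 libraries taken singly (adjusted p up to 0.128 without d6PGCLC replicate 2). The SNF2L gene *Smarca1* was close to the floor, with 2, 4, 1 and 3 counts in d6PGCLCs and 4, 2, 10 and 6 counts in E12.5 PGCs. It made up 0.137% and 0.192% of the summed *Smarca1* and *Smarca5* level per kilobase.

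In the INO80 family the H2A.Z-depositing ATPase genes *Srcap* and *Ep400* were lower. *Srcap* lay between 8.25 and 13.8 CPM in d6PGCLCs and between 15.8 and 22.2 CPM in E12.5 PGCs, without overlap (log2 fold change -0.60, SE 0.18, adjusted p = 0.0121). Without E12.5 PGC replicate 1 its adjusted p was 0.0503. *Ep400* was at 112 ± 30.5 against 166 ± 33.9 CPM with overlap (-0.56, SE 0.16, adjusted p = 0.00784). *Ino80* itself averaged 153 ± 12.2 and 151 ± 6.94 CPM (0.02, SE 0.09).

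*Hells* was the member with the highest level in E12.5 PGCs after *Hdac2* on the per-kilobase scale, at 180 ± 31.3 RPKM against 188 ± 10.6, a difference within their spread. Its levels were 302, 292, 298 and 300.0 CPM in d6PGCLCs and 830, 541, 750 and 685 CPM in E12.5 PGCs (chr19:38930262-38970470, plus strand). The d6PGCLC libraries lay very close together and well below each E12.5 PGC library. The means of 298 ± 4.51 and 701 ± 122 CPM differed 2.35-fold (log2 fold change -1.24, SE 0.10, adjusted p = 5.88e-09), from -1.34 to -1.14 without single libraries. *Atrx* did not pass the test, at 232 ± 28.3 and 216 ± 31.9 CPM (0.10, adjusted p = 0.586).

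**Figure D4:**
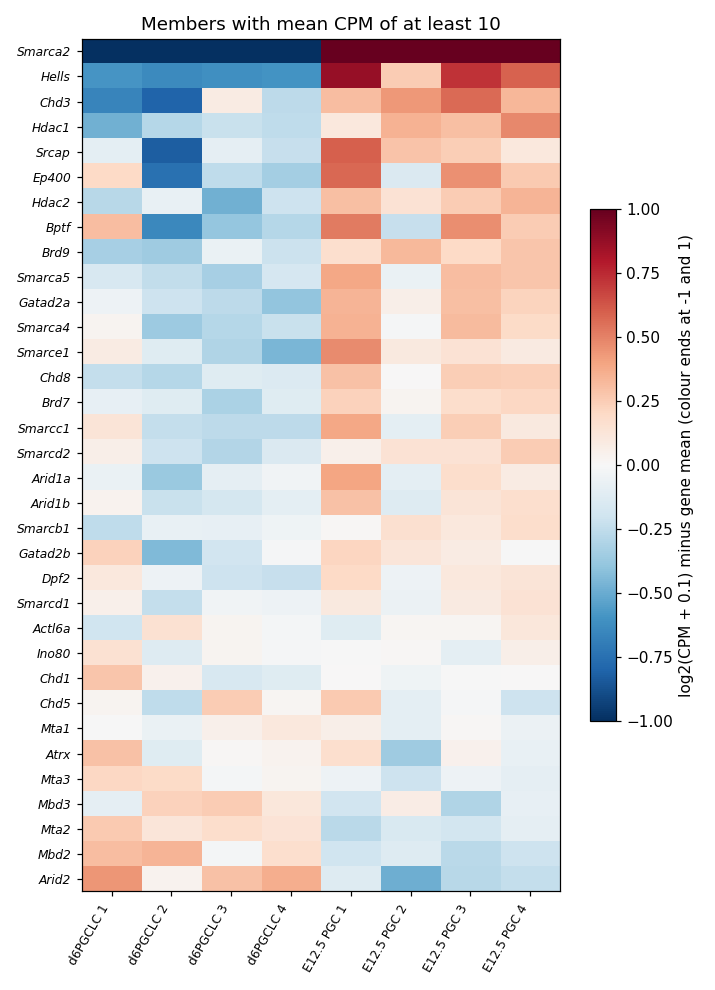
Difference of log2(CPM + 0.1) from the gene's own mean in each of the 8 libraries (columns) for the 34 remodeller genes with a mean of at least 10 CPM (rows, ordered by fold change), with colours ending at -1 and 1. *Smarca2* and *Hells* are low in every d6PGCLC library, *Arid2*, *Mbd2* and *Mta2* form the opposite end, and d6PGCLC replicate 2 is the darkest of its group for *Srcap*, *Ep400* and *Bptf*.

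Libraries of 1 group did not behave alike for these genes. Among the 34 with a mean of at least 10 CPM, d6PGCLC replicate 1 was the highest of its group for 21 (61.8%, against 34.3% of all genes at that level) and replicate 2 the lowest for 18 (52.9%, against 23.7%). E12.5 PGC replicate 1 was the highest for 22 (64.7%, against 33.3%) and replicate 2 the lowest for 20 (58.8%, against 38.5%). Libraries also differed in how counts varied with transcript length. The smoothed log2 level at 8000 bases minus that at 2000 was 0.04, -0.31, -0.18 and -0.06 in d6PGCLCs and 0.31, -0.05, 0.18 and 0.07 in E12.5 PGCs. With this trend removed, 18 of the 34 genes were lower (52.9%, against 30.7% of all genes at that level) and 2 were higher (5.88%, against 27.8%).

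The partner subunits of the same complexes were counted from a list of 51 genes, of which 41 have a row. Of these 18 were called, 8 higher and 10 lower, and their median log2 difference was -0.05. The share called, 43.9%, compares with 31.5% of all genes, and among those with at least 10 CPM it was 45.9% against 54.2%. The 10 further BAF subunits gave 2 higher and 2 lower, the 3 NuRD subunits gave 0 calls, the 8 ISWI partners 3 higher and 2 lower, the 18 INO80, SRCAP and EP400 subunits 2 higher and 5 lower, and the 2 partners of HELLS 1 in each direction. Of 10 further SNF2-family ATPase genes outside these complexes 5 were lower (50%, against 15.4% of all genes and 25.7% of those with at least 10 CPM) and 0 higher. *Dpf3* and *Dpf1*, which replace *Dpf2* in muscle and neural BAF, were lower, at 2.47 ± 0.84 against 10.2 ± 1.34 CPM (log2 fold change -2.03, adjusted p = 1.00e-06) and 10.5 ± 0.69 against 34.7 ± 4.65 CPM (-1.72, adjusted p = 7.45e-09). Both were separated between the groups.

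*Cdca7l*, a paralogue of the HELLS activator gene *Cdca7*, was lower in d6PGCLCs, at 49.5 ± 4.08 against 124 ± 16.6 CPM (log2 fold change -1.33, adjusted p = 4.70e-09). *Cdca7* itself was higher, at 249 ± 34.8 against 171 ± 11.5 CPM (0.54, adjusted p = 1.96e-04), opposite to *Hells*. *Baz1a*, encoding the ACF1 partner of SNF2H, was higher at 43.5, 24.7, 15.5 and 12.2 CPM against 15.5, 7.05, 9.04 and 7.31 CPM (1.31, SE 0.30, adjusted p = 0.00173), with overlap and a wide spread among d6PGCLCs. *Ss18*, a BAF subunit gene, was at 349 ± 17.6 against 188 ± 12.3 CPM (0.89, adjusted p = 3.66e-08) without overlap. *Cdca7* and *Ss18* were singled out after their values were seen.

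**Figure D5:**
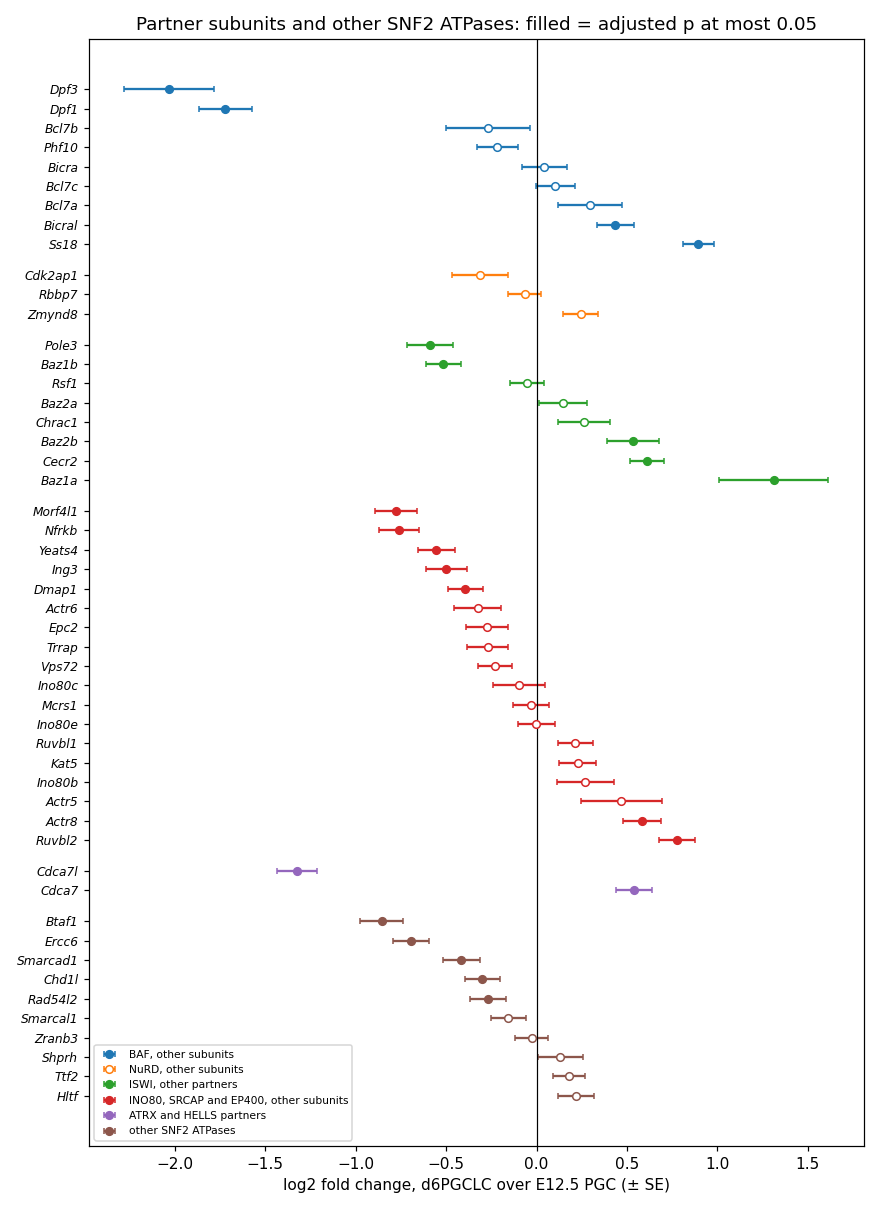
Log2 fold change, d6PGCLC over E12.5 PGC, with its standard error for the measured partner subunits and other SNF2 ATPase genes, grouped by complex, with filled points for an adjusted p of at most 0.05 (*Actl6b*, listed at 0 in d6PGCLCs, is not drawn). *Dpf3* (-2.03), *Dpf1* (-1.72) and *Cdca7l* (-1.33) lie lowest and *Baz1a* (1.31) highest.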

How the data were processed

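The deposited counts are raw reads per gene. The authors aligned single-end reads of stranded poly(A) libraries with STAR to GRCm38 (mm10), named in the submitters' processing notes, and counted uniquely mapped reads on the exons of 1 randomly chosen isoform per gene. Reads with several matches had been placed at random and did not enter the counts. Strand use in counting is not given in the sources used here. Besides *Smarca2*, *Smarcd3* and *Chd9*, the called genes *Smarcc1*, *Brd9*, *Chd8*, *Srcap* and *Ep400* also have GENCODE genes on the opposite strand. The table also holds an exonic length deposited by the authors (other unit), used for levels per kilobase. Symbols came from RefSeq for 21907 of 21950 genes, and promoter sequences from RefSeq (GRCm38.p6).

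Counts were tested with edgeR 4.0.16 (R 4.3.3) by the quasi-likelihood test with TMM normalisation, a prior count of 0.125, cell type as the only term and no filter, two-sided, with Benjamini-Hochberg adjustment over all genes. Scripts were tested on simulated data. Ratios between paralogues used counts plus 0.5, with no test. The pairs that needed *Chd4* or *Smarcc2* were not analysed here. Alternatives tried were DESeq2 1.42.0, edgeR's likelihood ratio test, other normalisations, filters, a prior count of 2, a length offset, a replicate block, an adjusted p of at most 0.01 and leaving out libraries. No pair of replicates agreed within counting noise (chi-square divided by its degrees of freedom, 3.35 to 22.1).

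Members called with a log2 fold change beyond 1 and no overlap were given library by library. Some of those with the largest or smallest change of a class were given as means. Partner subunits were given where called with a log2 fold change beyond 1. Some further genes were shown library by library after their values were seen. Members and lists were chosen with earlier results of these data known. P-values set the difference between the groups against the spread between pools, for which both groups share an estimate. Intervals and floors cover counting error only.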

Additional observations from a re-analysis of the deposited data

Results flagged for a closer look

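With groups of 4 libraries, a single library was marked where its gap to the nearest other was a larger part of the group's range than Dixon's 95% limit. Of 102 sets examined 3 were marked, where chance at 1 in 20 gives 5.1. *Smarcc1* was at 451 CPM in d6PGCLC replicate 1 and at 344 to 350 CPM in the others of the group. *Smarce1* was at 19.2 CPM in E12.5 PGC replicate 1 and at 14.7 to 15.3 CPM in the others. The log2 ratio of *Arid1a* to *Arid2* was 0.931 in d6PGCLC replicate 1 and 1.04 to 1.06 in the others.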

How the results depend on the processing

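No gene with a call reversed its direction under any alternative run, while 8 genes without a call (*Actl6a*, *Arid1b*, *Chd5*, *Mta1*, *Chd1*, *Chd2*, *Ino80* and *Atrx*) changed sign under at least 1. Of the single-gene results under alternatives 760 kept their side of the threshold, 38 gained a call and 40 lost one. The number of the 40 genes called ranged from 16 (adjusted p of at most 0.01, with 24.1% of all genes called) to 27 (replicate block, with 33.1%), and was 18 to 26 when single libraries were left out (27.2% to 32.2% of all genes), of which 2 to 3 were higher and 16 to 23 lower. Genes past a log2 fold change of 1 numbered 3 to 4. Same-numbered libraries did not deviate together throughout (correlations -0.01 to 0.25), so the numbers were not taken as pairs. With a replicate block 5 genes were higher in place of 3. Leaving out d6PGCLC replicate 1 and E12.5 PGC replicate 2 together, chosen after seeing the data, gave 26 genes called (32.1% of all genes). A pseudocount of 5 moved the change in the *Smarcd1* to *Smarcd3* log2 ratio from 2.71 to 1.52, and *Smarcd3* and *Smarca1* are limited by depth. The length offset removed the calls of *Arid1a*, *Chd8* and *Mbd2* and added those of *Smarcb1*, *Smarce1* and *Dpf2*, and the cause was not tested.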

Other observations

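The exonic length in the count table equals the exon sum of a GENCODE transcript plus 40 bases for each exon, exactly, for 5175 of 21324 genes with a matching symbol. The next best number of added bases, 38, matched 151 genes. Levels per kilobase given above use the table's length as it stands.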
